A study of Mus musculus with 3 samples.

Results

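The genes described are 9 transcription factors of the neurogenic and projection neuron lineage of the cortex, Neurog2, Eomes, Insm1, Neurod1, Neurod2, Neurod6, Tbr1, Bcl11b and Fezf2. They were listed by name, with earlier results of these data known, out of the 21938 protein-coding genes of GENCODE M21 on chromosomes 1 to 19, X and Y. Neurog2, Eomes, Insm1 and Neurod1 were taken as the 4 early factors, and Neurod2, Neurod6, Tbr1, Bcl11b and Fezf2 as the 5 late factors. The study examined NF-Y targets in mouse cortices at E13.5 by ChIP-seq, with 3 libraries: NF-Y-ChIP made with an antibody to the NF-YC subunit, H3K4me3-ChIP, and an input without antibody. Neither a genotype nor a treatment is given for these cortices, and the number of embryos in each library is not given in the sources used here. The deposited peak lists, 1 for NF-Y-ChIP and 1 for H3K4me3-ChIP, hold 733 and 18816 peaks. Each antibody had 1 library, so no value below has a replicate error, no test was made between genes, and the read depth behind a peak is unknown.

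In the developing cortex, radial glia in the ventricular zone give rise to intermediate progenitors and then to glutamatergic projection neurons. Proneural and progenitor factors act early in this sequence, and factors that fix neuronal maturation and the identity of the deep layers act later. H3K4me3 marks nucleosomes around active or poised transcription start sites. NF-Y is a ubiquitous trimer that binds the CCAAT box, a motif that lies typically within the proximal promoter.

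A peak was given to a gene when it lay inside the gene or within 5 kb upstream. Peaks separated by 1 kb or less were merged into a domain, whose width includes the gaps. Fold enrichment is the signal at a peak summit over the local background. Positions within a gene are counted in bp from the gene 5′ end in GENCODE M21, negative upstream. Motifs were searched on both strands in a promoter window from 250 bp upstream to 50 bp downstream of that end.

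The promoters of 3 of the 9 factors held a CCAAT box in this window, against 39% of all protein-coding genes. None of these 3 had an NF-Y-ChIP peak, which was found at 5.12% of the genes with 1 box and 15.4% of those with 2 among genes that carry H3K4me3. They are shown with that of Neurog2, which had no CCAAT box, to set the boxes in their sequence context. The stretches lie just upstream of the gene 5′ end and come from RefSeq promoter windows on GRCm38.p6. They run 5′ to 3′ along each gene. Capitals mark the CCAAT box and the GC box, whose letters are GGGCGG, and show the complement where a box lies on the other strand.
Eomes, chr9:118477939-118478188, plus strand: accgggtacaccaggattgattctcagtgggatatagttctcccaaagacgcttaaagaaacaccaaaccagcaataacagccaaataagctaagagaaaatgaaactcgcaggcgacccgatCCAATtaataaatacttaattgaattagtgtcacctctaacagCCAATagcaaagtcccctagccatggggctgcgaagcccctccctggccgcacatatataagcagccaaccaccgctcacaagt
Neurod2, chr11:98329649-98329895, minus strand: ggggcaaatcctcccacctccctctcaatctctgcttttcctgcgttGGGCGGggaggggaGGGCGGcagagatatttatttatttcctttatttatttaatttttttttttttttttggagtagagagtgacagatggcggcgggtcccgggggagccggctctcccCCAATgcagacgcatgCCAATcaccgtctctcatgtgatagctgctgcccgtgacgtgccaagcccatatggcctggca
Neurod6, chr6:55681264-55681513, minus strand: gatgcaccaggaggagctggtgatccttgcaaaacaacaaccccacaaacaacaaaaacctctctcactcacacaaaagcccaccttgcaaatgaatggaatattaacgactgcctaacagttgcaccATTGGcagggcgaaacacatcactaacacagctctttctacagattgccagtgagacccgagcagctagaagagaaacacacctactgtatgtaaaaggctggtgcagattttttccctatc
Neurog2, chr3:127632886-127633134, plus strand: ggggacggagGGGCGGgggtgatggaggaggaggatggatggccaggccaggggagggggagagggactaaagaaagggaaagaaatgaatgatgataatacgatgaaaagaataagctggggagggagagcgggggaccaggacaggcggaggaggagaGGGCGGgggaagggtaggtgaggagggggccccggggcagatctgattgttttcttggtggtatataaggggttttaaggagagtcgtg

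The RefSeq table held 8 of the 9 factors, and Insm1 was not among them. The boxes of Eomes began at −150 and −107, both on the gene's strand. Those of Neurod2 began at −79 and −63, also on the gene's strand. The single box of Neurod6 began at −122 on the other strand.

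All 9 factors had an H3K4me3-ChIP peak by the 5 kb rule, with 27 peaks in all, against 65.4% of all 21938 protein-coding genes. The 14352 genes with such a peak are called marked genes. The domains of the factors were wide and their peaks weak. The widest domain of every factor lay above percentile 90 of the marked genes, with a range from 2890 to 6618 bp against a median of 1489 bp. Without merging, the widest single peak lay above percentile 90 at 6 factors, as did the summed peak length, where Neurog2 was at percentile 89.0, Neurod1 at 87.4 and Neurod6 at 51.9. The highest fold enrichment lay below the marked gene median of 40.1 in 8 of 9 factors, all but Bcl11b. Of the 27 peaks, 24 belonged to the weaker 50% of all H3K4me3-ChIP peaks by fold enrichment. A domain of at least 3 kb was found at 7 of 9 factors and at 6.63% of marked genes, and 3 or more peaks at 5 of 9 factors and at 7.19% of marked genes. Whole cortices were used, so fewer cells carrying the mark and less mark per cell cannot be told apart in any of these values.

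**Figure D1:**
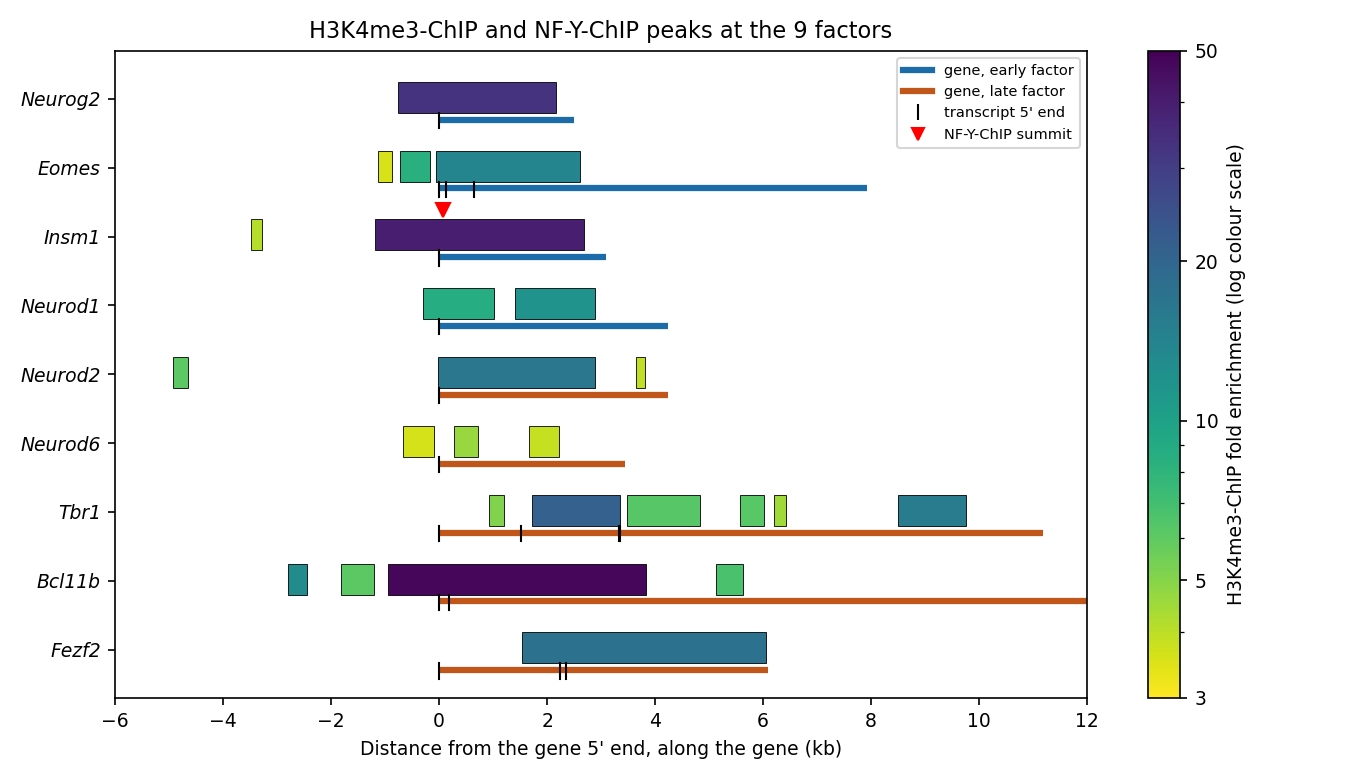
Peaks by distance from the gene 5′ end (kb, along the gene) at the 9 factors. Boxes are H3K4me3-ChIP peaks coloured by fold enrichment on a log scale, bars under them are the genes (blue early, orange late; Bcl11b runs past the right edge, with 2 intronic peaks near 23 kb not drawn), ticks are transcript 5′ ends, and the triangle is the only NF-Y-ChIP summit, at Insm1. The peak over the 5′ end is dark at Neurog2, Insm1 and Bcl11b, while Neurod6 has 3 pale peaks and the gene 5′ ends of Tbr1 and Fezf2 lie outside all peaks.

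Neurog2 (chr3:127633135-127635631), the proneural bHLH factor of cortical progenitors, had 1 unbroken peak of 2919 bp, from 753 bp upstream to 2165 bp into the gene. Its fold enrichment was 33.3, percentile 38.0 of the marked genes. The summit lay at +282 in the 5′ UTR. The peak covered 86.7% of this short gene, against a median of 3.75% for marked genes, which are mostly longer.

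Eomes (chr9:118478212-118486132), also called Tbr2, is the T-box factor of intermediate progenitors. It had 3 peaks that merged into a domain of 3736 bp. Fold enrichment rose along the domain, from 3.56 at the peak farthest upstream to 8.40 at the next and 13.9 at the peak over the 5′ end, whose summit lay at +1090 in a coding exon. The highest value was at percentile 10.8 of the marked genes, and the width at percentile 96.9. Its 3 annotated transcript 5′ ends all lay inside the last of these peaks.

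Insm1 (chr2:146221921-146225020), the intronless zinc finger factor that promotes the formation of basal progenitors, had the highest fold enrichment of the early factors. Its main peak spanned 3870 bp, covered the 5′ end, and reached 39.4 at a summit at +1057 in coding sequence. This was percentile 48.6 by fold and percentile 97.3 by width. A second, weak peak of 189 bp and fold 4.09 lay about 3 kb upstream, with its summit at −3355.

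Neurod1 (chr2:79452521-79456751), a bHLH factor of newly formed neurons, had 2 peaks with fold enrichment of 8.79 over the 5′ end and 11.8 in the gene, where the summit lay at +2501 in coding sequence. The merged domain spanned 3184 bp. The stronger peak was therefore not the one at the start of the gene. Both peaks also fell within 5 kb of, or inside, Cerkl and the lincRNA Gm26755, so the assignment to Neurod1 is not unique.

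Neurod2 (chr11:98325415-98329648), a bHLH factor of postmitotic projection neurons, had a main peak of 2899 bp with fold enrichment of 16.4. It began 15 bp upstream of the 5′ end and ran into the gene, with its summit at +1061 in an intron. A narrow peak of fold 3.92 in the 3′ UTR merged with it into a domain of 3838 bp, and another of fold 6.12 had its summit upstream at −4818.

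Neurod6 (chr6:55677822-55681263), a relative of Neurod2 in the same neurons, had the weakest mark of the 9. Its 3 peaks had fold enrichment of 3.59 upstream, 4.61 in the intron and 3.84 in a coding exon, and the highest of them was at percentile 0.906 of the marked genes. Their widths were 584, 458 and 558 bp. The merged domain of 2890 bp was at percentile 92.4, yet peaks filled only 55.4% of it, the least of the 9 factors. The 5′ end fell in the gap between the upstream peak, 87 bp away, and the intronic peak. All 3 peaks also lay within reach of the lincRNA Gm3279.

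Tbr1 (chr2:61802930-61814114), the T-box factor of early-born layer 6 neurons, had 6 peaks, 5 of which merged into a domain of 5505 bp. The highest fold enrichment, 21.2, was at a peak of 1627 bp with its summit at +2398 in a coding exon. A separate peak of fold 15.5 covered a coding exon near the 3′ end, with its summit at +9161. The other 4 had fold enrichment from 4.48 to 6.27. The annotated gene 5′ end lay 929 bp outside the nearest peak, and the RefSeq 5′ end, which lies 1523 bp into the gene, was 193 bp outside. Of the other 2 annotated transcript 5′ ends, that at +3332 lay inside the strongest peak and that at +3343 was 1 bp outside.

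Bcl11b (chr12:107910403-108003602), also called Ctip2, is the zinc finger factor of subcerebral projection neurons. It had both the widest domain, 6618 bp, and the highest fold enrichment, 47.5, of the 9 factors, at percentiles 99.7 and 64.7. The first rank in width depended on the merging gap. With gaps up to 500 bp, Fezf2 (6391 bp) was wider than Bcl11b (5649 bp). With gaps up to 3 kb, Tbr1 (12385 bp) was wider than Bcl11b (8425 bp). The main peak of Bcl11b, of 4766 bp, covered both annotated 5′ ends, and the summit lay 311 bp upstream. Bcl11b was the only factor whose highest summit was upstream of the gene. As the gene is 93200 bp long, peaks covered 5.14% of it, percentile 60.0 of the marked genes. Of its 6 peaks, 3 lay in introns with fold enrichment from 4.09 to 6.88.

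Fezf2 (chr14:12342094-12348189), the zinc finger factor that specifies subcerebral identity, had 1 peak of 4521 bp by the rule. Its fold enrichment was 17.5, and its summit lay at +3566 in coding sequence. The peak covered 74.2% of the gene. With 3 more peaks beyond the 3′ end, which the rule does not assign to the gene, the domain reached 6391 bp. The gene 5′ end, 1538 bp outside the peak, belongs to 1 of 3 annotated transcripts, and the other transcripts began at +2230 and +2345 inside it, as did the RefSeq 5′ end.

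The location of the mark within the genes thus varied. The gene 5′ end lay inside a peak at 6 of 9 factors, 4 of 4 early and 2 of 5 late, against 82.5% of marked genes. In the further lists of early and late factors described below the order was the opposite, with 8 of 11 marked early and 19 of 22 late genes. With RefSeq 5′ ends, an alternative chosen after the data were seen, it lay inside a peak at 6 of the 8 factors in the table, all but Neurod6 and Tbr1. The highest summit lay downstream of the 5′ end at 8 of 9 factors, a share near the 84.8% of marked genes. It lay in a coding exon at 5 of 9 factors, against 20.7% of marked genes. The median position was +1061 bp, against +247 bp over marked genes. Peaks covered more of the gene than in 90% of marked genes at 8 of 9 factors, all but the long Bcl11b.

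**Figure D2:**
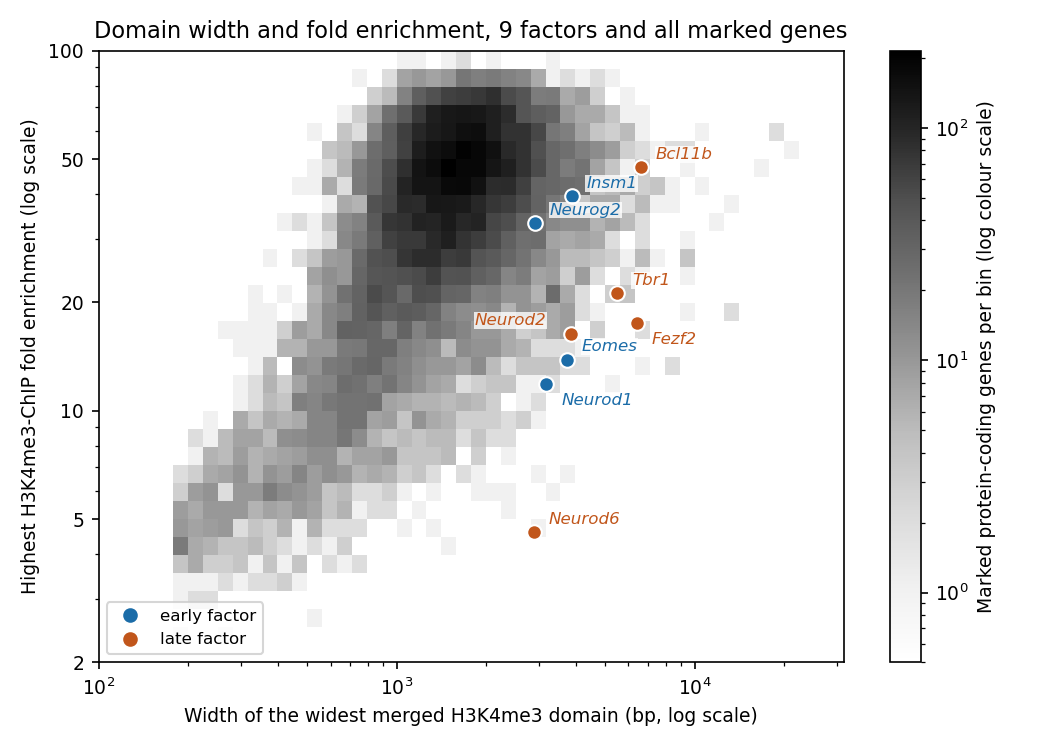
Width of the widest merged H3K4me3 domain (bp, log scale) against the highest fold enrichment (log scale). Points are the 9 factors (blue early, orange late), and grey bins count the 14352 marked protein-coding genes. All 9 points lie to the right of most of the cloud, at 2890 bp or more, and Neurod6, at 4.61, lies below the marked genes of similar width.

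The ranges of early and late factors overlapped on every measure given here. The widest domain ranged from 2919 to 3870 bp in the early factors, with a median of 3460 bp. In the late factors it ranged from 2890 to 6618 bp, with a median of 5505 bp, so that Tbr1, Bcl11b and Fezf2 were wider than every early factor while Neurod6 was narrower than all of them. The difference of the medians, 2045 bp wider in the late factors, depended on the merging of peaks. Where only gaps up to 500 bp were merged, the late median was below the early one, by a late minus early difference of −338 bp, and with single peaks it was 105.5 bp above. The same setting bears on the comparison with other genes. The widest single peak lay at percentile 54.3 for Neurod1 (1493 bp), 62.2 for Tbr1 and 6.58 for Neurod6, where the median of marked genes was 1426 bp.

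The highest fold enrichment had a median of 23.6 in the early factors, with a range from 11.8 to 39.4, and of 17.5 in the late factors, with a range from 4.61 to 47.5. This order was the opposite in the further lists, with medians of 35.4 in 11 early and 46.2 in 22 late genes. The median number of peaks was 2 in the early and 3 in the late factors, with Fezf2 at 1. With only peaks of −log10 q of at least 10, these medians were 1.5 and 1. The median share of the gene covered was 72.9% in the early and 46.4% in the late factors. The promoter window of the early factors was richer in G and C, with a median of 61% against 53%, and in CpG, with a median observed to expected ratio of 0.672 against 0.234. In the further lists the median CpG ratio was 0.565 in the early and 0.628 in the late genes, and within the H3K4me3-ChIP peaks of the 9 factors it was 0.750 in the early and 0.643 in the late factors. Tbr1, Neurod6 and Fezf2, the 3 factors whose gene 5′ end lay outside all peaks, had the lowest CpG ratios of the 9, with 0.234, 0.192 and 0.159. These values are descriptions of single genes, and the genes of a group are not replicates of each other.

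NF-Y-ChIP gave a peak at 1 of the 9 factors, Insm1, where 3.69% of all protein-coding genes and 5.6% of marked genes had one. The peak at Insm1 (chr2:146221940-146222110) spanned 171 bp inside the wide H3K4me3-ChIP peak. Its fold enrichment of 5.32 was below the list's median of 6.75 and ranked 552 of 733. Its −log10 p-value was 7.60 and its −log10 q-value 3.10. The summit lay at +80 in the 5′ UTR, and a single CCAAT box on the other strand began at +103. A box within 50 bp of the summit was found at 88.3% of NF-Y-ChIP peaks, against 5.67% of H3K4me3-ChIP peaks and 0 of the 27 H3K4me3-ChIP peaks of the 9 factors. The peak was 73.1% G and C.

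At the other 8 factors the nearest NF-Y-ChIP summit on the chromosome was over 100 kb from the gene 5′ end, and each lay closer to another gene. It lay 180 kb from Neurod2, near Fbxl20, 865 kb from Neurod6, near Znrf2, and 1182 kb from Neurod1, with Nup35 as its nearest gene. For Neurog2 it was 1903 kb away, near Elovl6, and for Tbr1 2103 kb, with Tanc1 as its nearest gene. For Bcl11b the distance was 2588 kb, with Dync1h1 as the nearest gene, and for Eomes 3379 kb, near Higd1a. For Fezf2 it was 7071 kb, next to the gene model Gm21738, and that peak had the lowest fold enrichment of the list, 1.46. No NF-Y-ChIP peak lay within 50 kb upstream of any factor but Insm1. A site bound too weakly to be called at the depth of this library would not appear in the list.

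**Figure D3:**
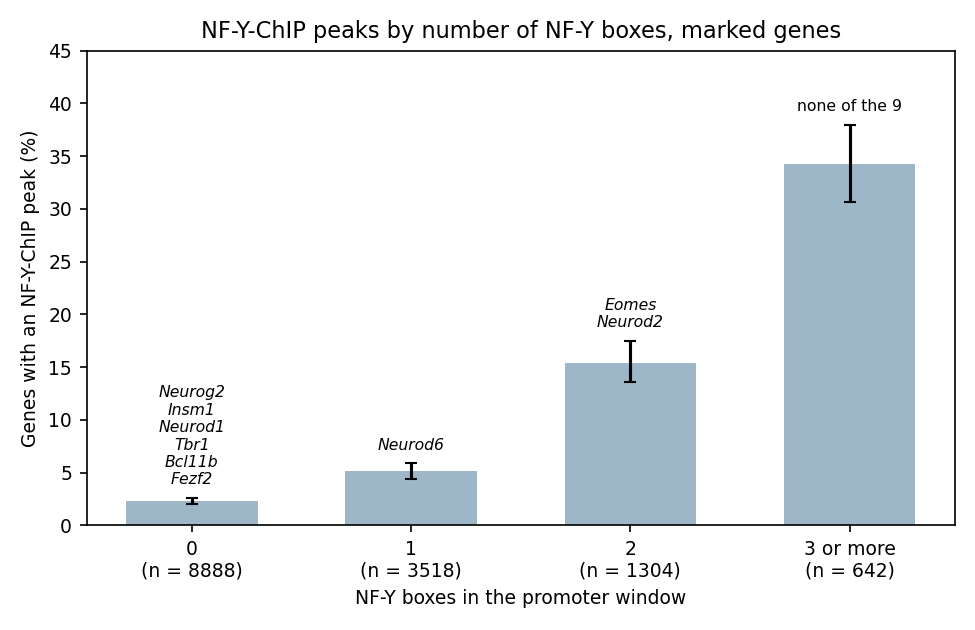
Share of marked genes with an NF-Y-ChIP peak (%) by the number of CCAAT boxes (NF-Y boxes) in the promoter window, with the number of genes under each bar. Bars are shares, error bars Wilson 95% confidence intervals over genes, and the names are the factors that fall in each class. The share goes from 2.27% without a box to 34.3% with 3 or more, and only Insm1, in the class without a box, has a peak among the named factors.

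The CCAAT box was found at a share of the 9 factors near that of all genes. It was present in the promoter window at 3 of 9, 33.3% (Wilson 95% interval 12.1 to 64.6), against 39% of all protein-coding genes and 38.1% of marked genes. Over marked genes, an NF-Y-ChIP peak was found at 2.27% of 8888 genes without a box, 5.12% of 3518 with 1 box, 15.4% of 1304 with 2 and 34.3% of 642 with 3 or more. Eomes and Neurod2 fall in the class with 2 boxes, and Neurod6 in that with 1. Tbr1 falls in the class without a box by its gene 5′ end. The same window at its transcript 5′ ends at +3332 and +3343 held 4 boxes. The class of Eomes and Neurod2 thus lacked a peak at most of its genes too, so that the lack of one at these factors does not set them apart. Insm1 fell in the class without a box, because the box under its peak lies beyond +50.

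**Figure D4:**
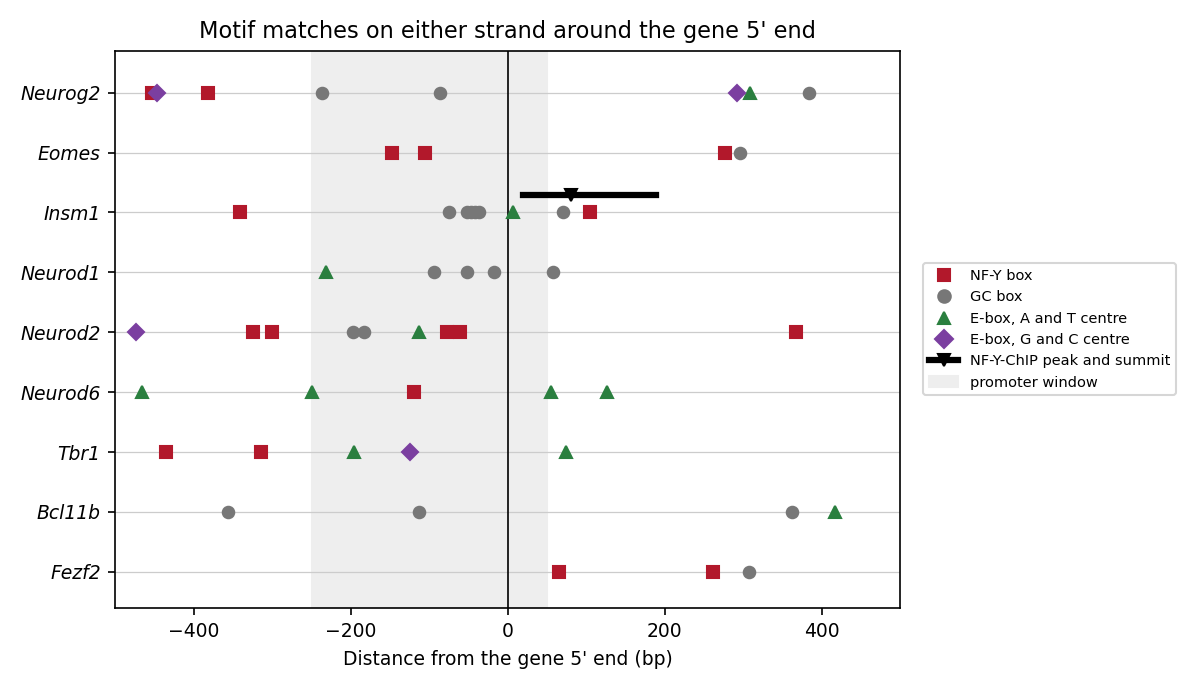
Motif matches on either strand within 500 bp of the gene 5′ end (bp) at the 9 factors. Squares are CCAAT (NF-Y boxes), circles GGGCGG (GC boxes), triangles CAGATG and diamonds CAGCTG (E-boxes), the grey band is the promoter window, and the black bar with a triangle is the NF-Y-ChIP peak of Insm1 with its summit. Squares fall inside the band only at Eomes, Neurod2 and Neurod6, and Neurod1 and Bcl11b have none in view.

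In a wider window of 500 bp to each side, 7 of the 9 factors held a CCAAT box, all but Neurod1 and Bcl11b, against 70.6% of all protein-coding genes and 66.8% of marked genes. Neurod2 had the most boxes with 5. In the 100 bp upstream alone, 1 of 9 factors held a box, Neurod2, against 21% of all and 21.6% of marked genes. The longer NF-Y consensus, with a purine pair before CCAAT and then G or C and a purine, was found in the promoter window of 0 of 9 factors, against 12% of all and 14.2% of marked genes. In the RefSeq promoter windows, another alternative chosen after the data were seen, 4 of 8 factors held a box, the same 3 and Tbr1, against 37.4% of all 32851 windows. The H3K4me3-ChIP peaks of the 9 factors held 36 CCAAT boxes in all. This came to a median of 1.11 boxes per kb of peak in the early and 0.893 in the late factors, against 1.01 over marked genes, with a range from 0.597 at Bcl11b to 1.88 at Neurod6.

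Other motifs were counted in the same promoter window. The GC box GGGCGG, bound by Sp factors, was found at 5 of 9 factors, Neurog2, Insm1, Neurod1, Neurod2 and Bcl11b, against 43% of all protein-coding genes and 59.8% of marked genes. Insm1 had 5 matches, of which 4 overlapped in a row from −54 to −34, upstream of the NF-Y-ChIP peak. With the RefSeq windows, which lack Insm1, Bcl11b held no GC box while Tbr1 and Fezf2 held 1 each. The E-box CAGATG, of the kind that Neurog and Neurod factors bind, was found at 4 of 9 factors, Insm1, Neurod1, Neurod2 and Tbr1, against 15.2% of all and 12.2% of marked genes. In the RefSeq windows it was found at 1 of 8 factors, Neurod2, and in the further lists at 2 of 12 early and 3 of 22 late genes. The palindromic E-box CAGCTG was found at Tbr1 alone, against 15.6% of all and 14.8% of marked genes, and at none of the 8 factors in the RefSeq windows. The T-box core AGGTGTGA, of the kind bound by Eomes and Tbr1, was found at none of the 9, against 1.19% of all and 0.85% of marked genes. A match is a sequence feature and not a measurement of binding.

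Further factors of the same lineage were taken from lists of 12 early and 22 late genes. Of the other early factors, 11 of 12 were marked, all but Neurod4, and of the other late factors all 22. Their domains were wide too, with a median of 3682 bp in the early and 4134.5 bp in the late list, and 8 of the 11 marked early and 17 of the 22 late genes lay above percentile 90 of the marked genes. The widest early domains were at Sox11 (8787 bp), Scrt1 (5563 bp) and Sox4 (5214 bp), and the narrowest at Nhlh1 (1143 bp) and Neurog1 (1476 bp). The widest late domains were at Pou3f3 (20410 bp, the widest of all marked genes), Nfib (12854 bp) and Bcl11a (9990 bp), and the narrowest at Mef2c (1672 bp) and Rorb (1822 bp). The highest fold enrichment lay below the marked gene median at 6 of the 11 marked early and 9 of the 22 late genes, beside 8 of the 9 factors.

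NF-Y-ChIP gave a peak at 1 of the 12 early genes (8.33%) and 1 of the 22 late genes (4.55%). The share was 3.69% over all protein-coding genes and 5.6% over marked genes. At Hes6, which promotes neuronal differentiation, the peak had a fold enrichment of 7.90, with its summit at +766 and a CCAAT box within 50 bp. At Tle4, a corepressor gene of layer 6 neurons, the fold enrichment was 3.02 and the −log10 q-value 0.046, and no CCAAT box lay within 50 bp of the summit. Hes6, like Insm1, had a peak downstream of its 5′ end with a box near the summit, while its promoter window held none. Among marked genes, 202 of the 8888 without a box in that window had a peak. A box lay within 50 bp of the summit at 88.3% of all NF-Y-ChIP peaks.

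Markers of the tissue and of other cells were checked by the same rule, which gave a peak at 65.4% of all protein-coding genes. A peak was found at 4 of 4 cortical identity genes, 6 of 6 radial glia genes and 5 of 5 neuronal genes, with median fold enrichment of 43.0, 38.5 and 50.6. Genes of ventral progenitors and interneurons, such as Dlx2 and Gad1, had a peak at 6 of 6, with fold enrichment from 16.2 to 47.0. A peak was found at 1 of 4 endothelial, 2 of 4 microglial, 2 of 4 erythroid and 3 of 4 mesenchymal genes, and at none of the 4 liver and muscle genes Alb, Afp, Myod1 and Myog. The defining endothelial genes Cdh5 and Pecam1, the microglial genes Csf1r and Aif1 and the globin genes Hba-a1 and Hbb-bt had none. Fold enrichment at the genes with a peak was 9.38 (endothelial), 5.60 and 33.2 (microglial) and 22.7 and 30.1 (erythroid). Its median was 13.3 at the mesenchymal genes. Both erythroid values and the higher microglial value lay within the range of the ventral and interneuron genes. What part cells outside the projection neuron lineage have in the values of the 9 factors was not tested.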

How the data were processed

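ChIP-seq was made from mouse cortices at E13.5 with 1 library each of NF-Y-ChIP, H3K4me3-ChIP and input, and the input has no peak list used here. The authors used Trimmomatic for trimming, Bowtie2 (version 2.2.8 in the submitters' processing notes) for alignment to mm10 (GRCm38) and MACS2 (version 2.1.2) for peak calling. NF-Y-ChIP peaks had to pass a p-value threshold of 0.001, and H3K4me3-ChIP peaks a q-value threshold of 0.05. The study describes the input as its negative control, and its account of peak calling names no control. The H3K4me3-ChIP list holds fewer peaks than the regions the study counts, and it was used as deposited. The deposited fold enrichment is a ratio of summit signal to local background. Each peak also has the deposited −log10 of its p-value and of its q-value. The display score deposited with it follows the statistic behind the threshold, the p-value in 1 list and the q-value in the other. This score and the number of peaks served to tell the lists apart.

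Peaks were assigned to GENCODE M21 genes, merged, ranked among marked genes (ties counted as not lower), and searched for motifs in the GRCm38.p6 reference. Assignment, merging and motif search were tested on simulated data in which the right answer was set. Intervals on shares are Wilson 95% intervals and cover counting over genes only. The factors and lists were chosen with earlier results of these data known. Other genes were named by rule: those of the 2 further lists with an NF-Y-ChIP peak, without an H3K4me3-ChIP peak, or with the 3 widest or 2 narrowest domains, the gene nearest to the nearest NF-Y-ChIP peak of each factor, and genes that share a peak with one. Alternatives changed the upstream distance, the merging gap, the thresholds, the overlap, the motif and its window, and the group of Neurod1. Python 3.11.15, NumPy 2.4.6, pandas 2.3.3, SciPy 1.17.1, pysam 0.24.0, samtools 1.23.1 and matplotlib 3.10.9 were used.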

Additional observations from a re-analysis of the deposited data

How the results depend on the processing

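No result below rests on a replicate, and peaks under the calling threshold are not in the lists, so the lists do not tell a gene that lacks signal from one whose signal was too weak to be called. Insm1 alone had an NF-Y-ChIP peak under the upstream distances and thresholds tried. All 9 factors had an H3K4me3-ChIP peak under the distances and overlap tried, and 8 of 9, without Neurod6, under the stricter threshold.

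With only peaks of −log10 q of at least 10, the 27 H3K4me3-ChIP peaks became 13 and the late minus early median width 562.5 bp, with Neurod6 left out. That difference was 2045 bp in the report, 105.5 bp without merging (late median 2899 bp), −338 bp with gaps up to 500 bp (late median 3122 bp), 1329 bp by summed peak length and 935.5 bp with Neurod1 among the late factors. The latter also moved the difference in fold enrichment from −6.08 to −16.3. Of the 9 factors, 7 held a CCAAT box within 500 bp to each side (66.8% of marked genes), 1 in the 100 bp upstream (21.6%) and 0 with the longer NF-Y consensus (14.2%). That consensus gave 0.123 boxes per kb of peak in the early factors and 0 in the late, a difference of −0.123. The other 53 values of this kind stayed within 1.5 times, and so did 35 of 44 domain widths of single factors. The cause of these changes was not tested. No paired analysis was possible because each antibody had 1 library.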
